A study of Mus musculus with 33 samples.

Results

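The Hox genes are 39 protein-coding genes of the mouse, 39 of the 21844 genes measured here, taken as every symbol made of Hox, a cluster letter from a to d and a paralog number. They fall into 4 clusters, with 11 genes in Hoxa, 10 in Hoxb, 9 in Hoxc and 9 in Hoxd. The libraries came from mouse embryonic stem cells that were left to form embryoid bodies without serum, taken apart and treated at day 2, and harvested at day 4. Activin A, a TGF-beta family ligand that drives mesoderm and endoderm formation in such cultures, was added at 3 ng/mL (AA3), 15 ng/mL (AA15) or 100 ng/mL (AA100). SB-431542, an inhibitor of the activin and Nodal receptor kinases, was added in the group SB, and SFM is the untreated serum-free control. No genotype, cell line or transgene is named in the labels, so all groups are described by treatment alone.

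Of the 33 libraries, 7 form a dose set: 2 SFM, 1 SB, 1 AA3, 2 AA15 and 1 AA100, prepared as DP-seq libraries, in which a designed set of heptamers primes the amplification. A method set of 10 libraries compares AA100 with AA3 by 3 methods: standard RNA-seq from 20 ng mRNA (2 AA3, 1 AA100), DP-seq from 50 pg (1 AA3, 2 AA100) and SMART-seq from 50 pg (2 AA3, 2 AA100). A dilution series took AA3 mRNA from 10 ng down to 1 pg, with 2 libraries at each amount, and 4 more AA3 libraries tried paired-end reads and 3 primer sets meant to avoid ribosomal transcripts. The labels call the paired libraries of a group technical replicates, except the SFM pair, whose replicate 2 carried yeast spike-in transcripts. p-values in the method set therefore measure technical spread, around 1 culture per treatment as far as the labels say. In the dose set the spread also comes from the SFM pair, which the labels do not call technical.

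Hox genes encode homeodomain transcription factors that give cells their position along the head-to-tail axis. In each cluster the genes lie in the order in which they are switched on: low paralog numbers come first, in the posterior primitive streak and later up to the hindbrain, and high numbers follow, toward the tail. Retinoic acid, Wnt and FGF signals and the Cdx factors switch them on, Polycomb complexes keep them silent in stem cells, and Pbx and Meis proteins bind DNA with them. Hoxb1, an early gene of paralog group 1 that patterns rhombomere 4 of the hindbrain, has a promoter-proximal element that Hox and Pbx proteins bind together.

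Hoxb1 carries most of the Hox signal in the method set, so its upstream sequence is shown. RefSeq's promoter table (GRCm38.p6) held 24 promoters of 22 of the 39 genes. The bases from 250 to 51 before the annotated start of Hoxb1 lie at chr11:96365508-96365707 on the plus strand. The capitals mark the single match to TGATNNAT, the letters of a Hox-Pbx site, whose first base is 162 bases before the start.
Hoxb1: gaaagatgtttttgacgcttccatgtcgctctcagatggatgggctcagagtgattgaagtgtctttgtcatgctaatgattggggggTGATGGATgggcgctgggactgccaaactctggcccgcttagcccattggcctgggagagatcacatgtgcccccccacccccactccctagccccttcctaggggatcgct
Searched on both strands, TGATNNAT was found in 12.5% of the 24 Hox promoter windows (Hoxa2, Hoxb1 and Hoxd11) and in 6.44% of the 32851 windows of the same 200 bases. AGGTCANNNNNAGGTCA, a direct repeat that retinoic acid receptors bind, was in none of the 24 and in 0.00913% of all windows. The Hoxb1 window held 5 CpG and had an observed-to-expected CpG ratio of 0.313, against a median of 0.684 over the 24 Hox windows and 0.357 over all windows. No match means only that these letters are absent from this window.

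Most Hox genes were close to silent at day 4. All 39 genes together had 1649 counts of the 370971009 counts in the 33 libraries. At least 1 count was found for 33 genes. The other 6 (Hoxa4, Hoxa6, Hoxc11, Hoxc12, Hoxd11 and Hoxd12) had 0 counts in every library, which allows up to 3 counts of that total. Counts reached 10 in at least 1 library for 10 genes, and reached 20 for 3: Hoxb1, Hoxa5 and Hoxc8. In a single library 2 to 20 of the 39 Hox genes were read, or 5.13% to 51.3%, where 29.4% to 72.7% of all genes were. Library totals ran from 427556 to 30609013 counts, and a gene with 2 to 5 counts in a library cannot be told from one at a neighbouring count.

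The sets differed in which members were read. In the dose set 28 genes had a count in at least 1 of 7 libraries, and 4 had one in every library: Hoxa3, Hoxb6, Hoxb9 and Hoxc8. By position, the dose set read 9 of 12 genes of paralog groups 1 to 4 with 121 counts, 10 of 11 genes of groups 5 to 8 with 185 counts, and 9 of 16 genes of groups 9 to 13 with 150 counts. The method set read 21 genes in 10 libraries, and there groups 1 to 4 held 515 of 686 counts, groups 5 to 8 held 98 and groups 9 to 13 held 73. By cluster, the method set had 456 counts in Hoxb, 107 in Hoxd, 92 in Hoxc and 31 in Hoxa, while the dose set had 161 in Hoxb, 153 in Hoxa, 91 in Hoxc and 51 in Hoxd. Hoxb1 alone held 58.2% of the Hox counts of the method set and 8.11% of those of the dose set. No test was made of these shares.

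**Figure D1:**
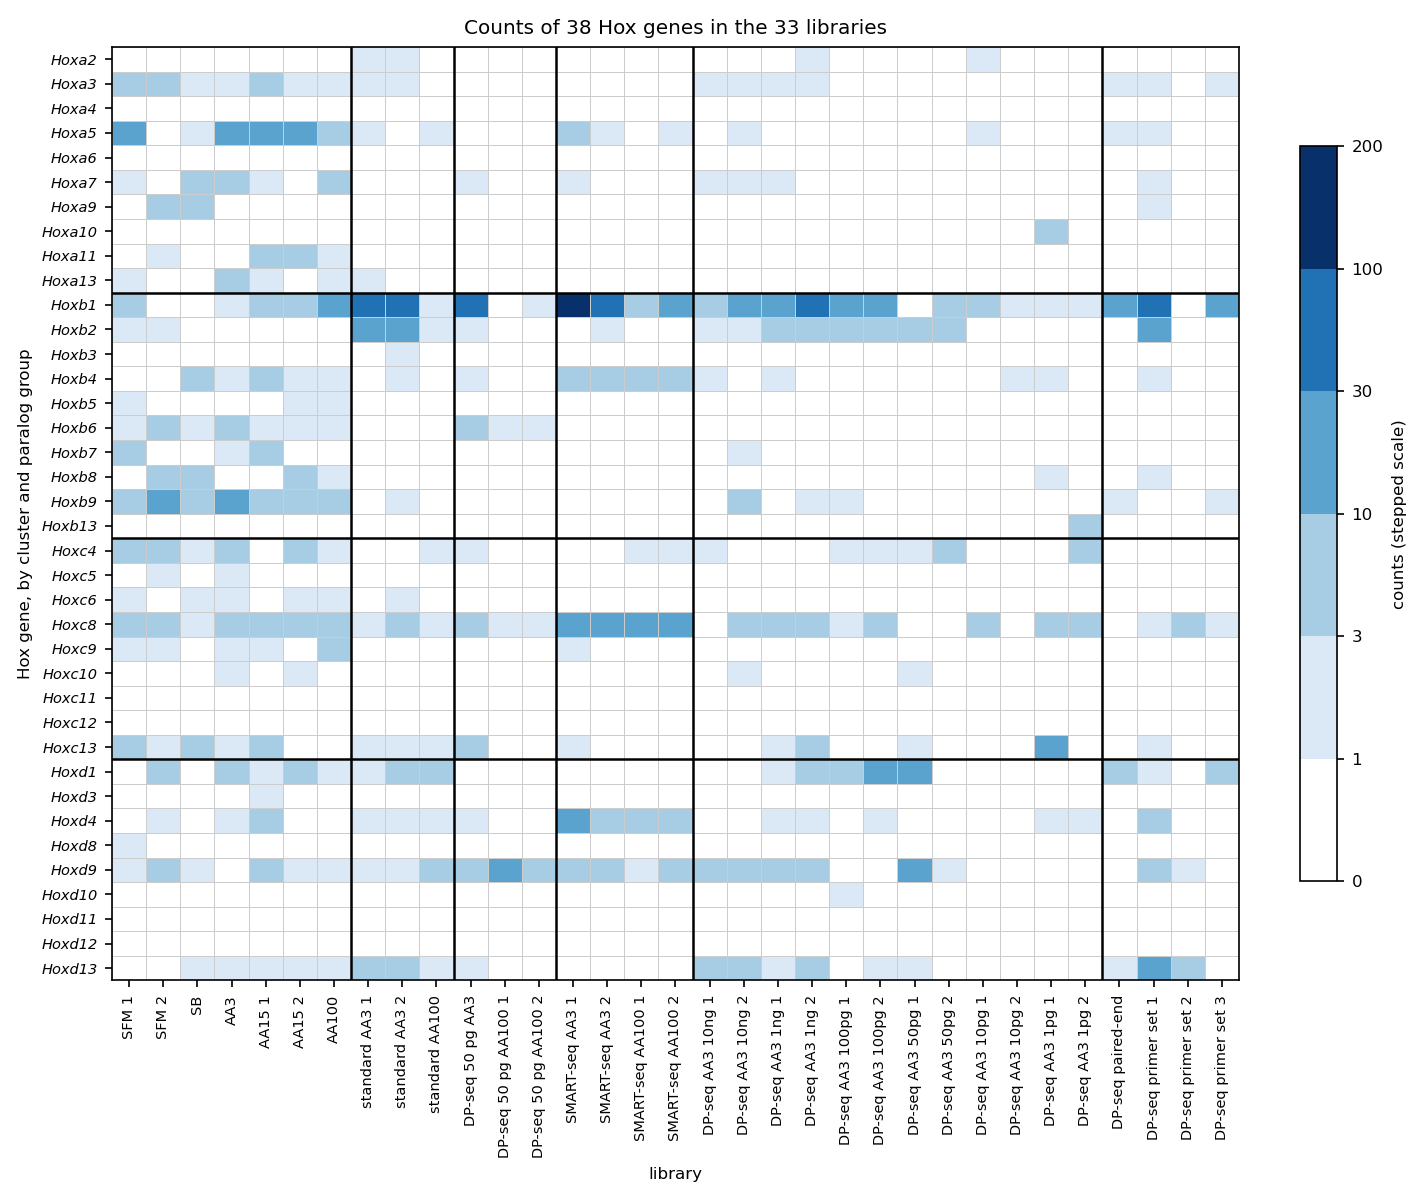
Counts of 38 Hox genes (rows, grouped by cluster and ordered by paralog number) in each library (columns), on a stepped color scale in counts; horizontal black lines part the clusters and vertical ones part the dose set, the 3 methods, the dilution series and the paired-end and primer set libraries. White cells hold 0 counts; Hoxb1 is the darkest row outside the dose set, with 145 counts in the first SMART-seq AA3 library, and Hoxa5 is darkest in the dose set.

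Scaled to depth and transcript length (RPKM), which allows genes to be compared, the 2 standard RNA-seq AA3 libraries had Hoxb1 at 2.28 and 1.89 RPKM and Hoxb2, its cluster neighbour, at 0.629 and 0.767. Every other Hox gene was at or under 0.413 RPKM there, the value of Hoxd1 in replicate 2. Some genes that flank the clusters were read well and others hardly at all. In CPM (counts scaled to library depth) over the dose and method sets, Skap2 beside Hoxa had 9.96 to 61.9, Mtx2 beside Hoxd 15.4 to 120 and Calcoco1 beside Hoxc 5.44 to 100. Beside Hoxb, Atp5g1 had 0 to 17.5 and Skap1 0 to 0.309 CPM, and Evx2 beside Hoxd had 0 counts in every library. These genes were picked after their values were seen. Sequence shared with other genes limits few members. Of 39 transcripts, 33 had under 6% of their 32-base words in another gene. Hoxb1 had 0.243%, but Hoxd3 had 74.7% and Hoxd4 43.3%. Genes of any family counted, except further models with Hox names, and sharing between paralogs was not separated from the rest. DP-seq does not read every gene: of 11872 genes with at least 10 counts in both standard RNA-seq AA3 libraries, 225 (1.9%) had 0 counts in both 10 ng DP-seq libraries of AA3.

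At the library level, the SFM pair was the wider of the 2 pairs in the dose set: the SD of its log2 ratios over 10920 genes was 1.8, against 0.412 for AA15 in the same set and 0.207 for standard RNA-seq AA3; the 50 pg pairs of the method set had 1.24 to 1.4 and the 10 pg pair 2.3. T (Brachyury), the streak gene, had 67.8 CPM in SFM 1 and 0.766 in SFM 2. Results against SFM are therefore given with each SFM library left out where that changes a call. Summed fibroblast markers, which would mark feeder cells, ran from 45.2 to 72.6 CPM in the dose set and from 36.9 to 41.8 in standard RNA-seq, with 1 to 3 of 12 markers at 0; in the 50 pg libraries they ran from 8.84 to 18.5 CPM with 6 or 7 markers at 0. In whole embryoid bodies, fewer cells that express a gene and less RNA per cell cannot be told apart.

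Hoxb1 was lower in AA100 than in AA3 in every method, and the standard RNA-seq fit called it lower. The 2 standard AA3 libraries had 51 and 41 counts and the AA100 library had 2, or 4.34 ± 0.573 CPM (SD, n = 2) against 0.193 CPM. The groups did not overlap, and the summed level was 22.6 times higher in AA3 (exact 95% counting interval 6.08 to 189). edgeR's quasi-likelihood test gave a log2 change of -4.39 ± 0.58 (SE) with a Benjamini-Hochberg adjusted p of 2.29e-13. In that comparison 62.3% of the 12605 genes tested were called, 31.1% lower, in a fit whose spread comes from 1 pair of technical replicates. In a joint fit of the 10 method libraries the same change had a standard error of 1.56 and an adjusted p of 0.366 in edgeR, and over 6 alternatives the adjusted p ran from 2.4e-13 to 1.

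The same step in the other methods pointed the same way. DP-seq from 50 pg had 57 Hoxb1 counts in AA3 and 0 and 1 in AA100. AA3 was above both AA100 libraries, by 132 times in summed level (counting interval 22.8 to 5317). SMART-seq had 145 and 87 counts in AA3 and 5 and 10 in AA100, with no overlap, a level 14.2 times higher in AA3 (counting interval 8.44 to 25.8). In DP-seq Hoxb1 passed the filter on low counts through AA3 alone, and in SMART-seq the AA100 pair alone would not have passed it. The edgeR changes were -6.77 ± 2.34 (adjusted p = 0.121) for DP-seq and -3.90 ± 1.09 (adjusted p = 0.153) for SMART-seq, and neither was called. DESeq2 called Hoxb1 in SMART-seq, with an adjusted p of 0.0234, while over 9 alternatives it ran from 0.0234 to 0.504.

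Of the Hox genes, 2 passed the filter on low counts in each method, so no list count is drawn from them. Those called were 2 of 2 in standard RNA-seq (62.3% of all genes called), both of which passed the filter through AA3 alone, 0 of 2 in DP-seq (3.43% of all genes called) and 0 of 2 in SMART-seq (1.35%). The difference in the Hoxb1 change between methods was not called in any of the 3 pairs. Standard minus DP-seq was 2.44 ± 1.96 (edgeR adjusted p = 0.789, with 0.739% of all genes called). Standard minus SMART-seq was -0.42 ± 1.49 (edgeR adjusted p = 1, with 0.853% called), and DP-seq minus SMART-seq was -2.87 ± 1.68 (adjusted p = 0.522, with 0.0213% called). At standard errors of this size, differences of several log2 units between methods would not be seen.

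**Figure D2:**
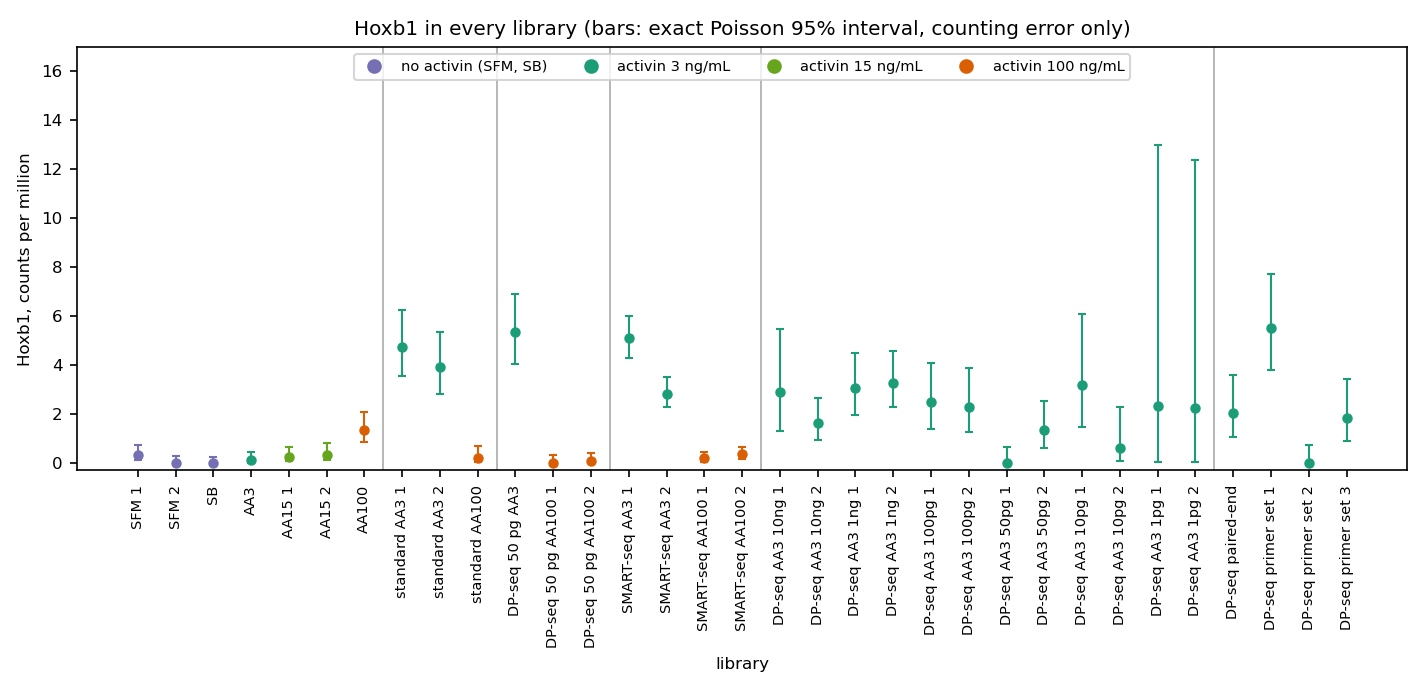
Hoxb1 level in CPM (vertical axis) in each of the 33 libraries (horizontal axis), colored by activin dose; points are library values and bars are exact 95% Poisson intervals, which cover counting error only, and gray lines part the sets. In the 3 method panels the AA3 libraries sit at 2.84 to 5.34 CPM and the AA100 libraries at or under 0.353, while in the dose set AA100 (1.36 CPM) is the highest of 7.

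Hoxb2, which Hoxb1 and Krox20 regulate in the hindbrain, was the other member called in standard RNA-seq. It had 11 and 13 counts in AA3 and 1 in AA100, so that it passed the filter through AA3 alone. The AA3 level was 11.8 times the AA100 level (counting interval 1.92 to 485), and the edgeR change was -3.38 ± 1.08 (adjusted p = 0.00359). The joint fit did not call it, and over 5 alternatives its adjusted p ran from 0.00368 to 1. DP-seq had 2 counts in AA3 and 0 in AA100, and SMART-seq had 1 in a single AA3 library and 0 elsewhere, too few to compare. The dose set hardly read Hoxb2, with 1 count in each SFM library and 0 in SB and all activin libraries. Summed hindbrain and spinal cord markers stood at 63.6 and 62.8 CPM in standard AA3 and 59.7 in AA100, and at 41.7 in DP-seq AA3 and 18.2 and 7.1 in AA100; their part in the Hoxb1 and Hoxb2 values was not tested.

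The remaining tested members of the method set were Hoxc8 and Hoxd9, whose changes were within their errors. Hoxc8, a trunk-level gene, had 22 and 16 counts in SMART-seq AA3 and 17 and 12 in AA100, overlapping groups with a change of -0.32 ± 1.08 (edgeR adjusted p = 0.937). Hoxd9 had 4 counts in DP-seq AA3 and 13 and 7 in AA100, a change of 1.12 ± 3.35 (adjusted p = 0.923). The AA100 libraries there were the higher ones, within an error of that size. Hoxd9 passed the filter on low counts through AA100 alone in DP-seq, so no direction is read from it. The members that follow did not pass the filter in the method given, and only their counts are described. Hoxc13 had 4 counts in DP-seq AA3 and 0 in both AA100 libraries, 3.1-fold lower with that group at a floor of 3 counts. Its counting interval starts at 1.53-fold lower. Hoxd1, a paralog of Hoxb1 in cluster d, had 2 and 8 counts in standard AA3 and 4 in AA100, which lies between them. Hoxd4, whose transcript shares much sequence with other genes, had 10 and 7 counts in SMART-seq AA3 and 4 and 3 in AA100, without overlap and with a ratio of 2.23 whose counting interval (0.879 to 6.36) includes 1. Hoxb4 had 4 and 6 against 3 and 6 there. Hoxd13, the most posterior gene of its cluster, had 4 and 4 counts in standard AA3 and 2 in AA100, and 0 in every SMART-seq library.

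The sum of the other 38 genes was also lower in AA100 by counts. The summed level in standard RNA-seq was 2.7 and 3.94 CPM in AA3 and 1.83 in AA100, a ratio of 1.81 (counting interval 1.08 to 3.18). Of the counts behind it, Hoxb2 held 24 of 70 in AA3 and 1 of 19 in AA100. That ratio therefore rests largely on Hoxb2 and was not computed without it. In DP-seq the summed level was 2.62 against 1.32 and 0.747 CPM, a ratio of 2.6 (1.46 to 4.65). In SMART-seq it was 1.65 and 1.27 against 1.04 and 1.13, a ratio of 1.34 (0.95 to 1.9). Those intervals hold counting error only, and an exact permutation test of a sum over so few libraries cannot reach 0.05.

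**Figure D3:**
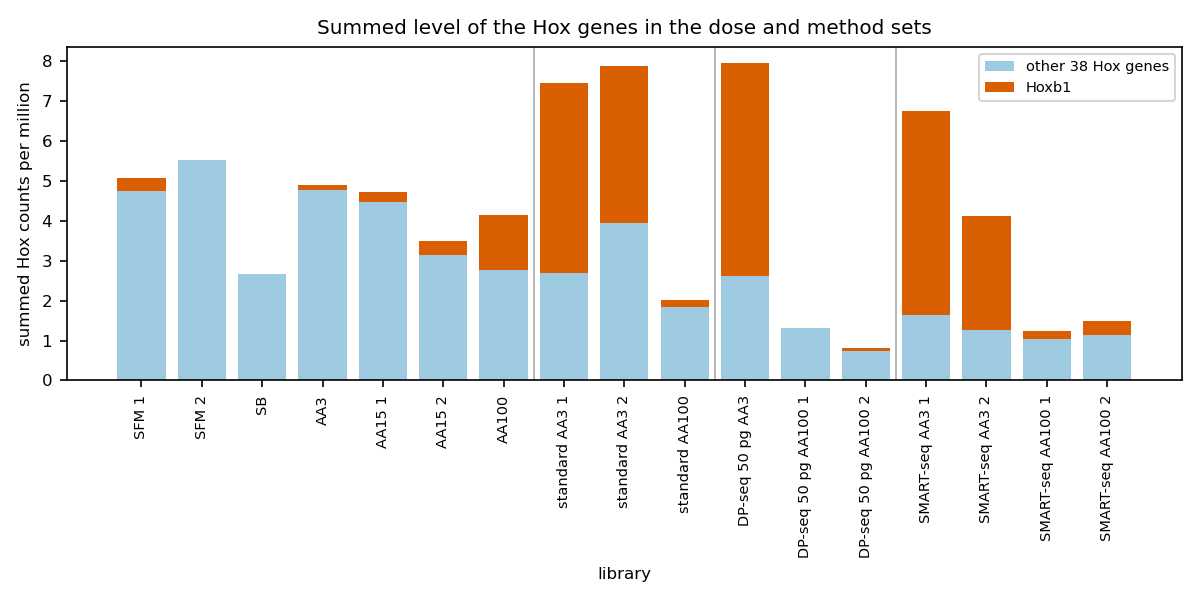
Summed Hox level in CPM (vertical axis, from 0) in each library of the dose and method sets, stacked as the other 38 Hox genes (blue) and Hoxb1 (orange), with gray lines between sets. Hoxb1 adds 2.84 to 5.34 CPM to the bars of the AA3 libraries of the 3 methods and 0.127 CPM to the bar of the dose-set AA3 library.

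In the dose set the same step went the other way for Hoxb1. Its counts were 5 and 0 in SFM, 0 in SB, 2 in AA3, 4 and 5 in AA15, and 21 in AA100. The AA100 library was the highest of 7 and stood 10.7 times above AA3 in level (counting interval 2.61 to 93.9). Hoxb1 passed the filter on low counts through AA100 alone there. edgeR gave 3.32 ± 1.76 for AA100 against AA3 (adjusted p = 1), and over 9 alternatives the adjusted p ran from 0.0783 to 1. Of 12180 genes tested in that comparison 0% were called by edgeR, with 128 under an unadjusted p of 0.05, and 0 of 3 tested Hox genes were called. Without SFM replicate 1 or 2, which are in neither arm, 605 and 560 genes were called (5.01% and 4.64%), again with 0 Hox genes.

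The labels do not say whether the AA3 RNA of the dose set is the RNA of the other sets. Hoxb1 was at 0.127 CPM in the dose-set AA3 library, and at 1.65 to 3.27 CPM in the 4 DP-seq dilution libraries from 10 ng and 1 ng, which carry the same treatment label. In a joint fit of 17 libraries, added after the data were seen, the Hoxb1 step in the dose set minus that in each method was 7.71 ± 2.45 for standard RNA-seq, 10.18 ± 2.49 for DP-seq and 7.33 ± 2.19 for SMART-seq. The edgeR adjusted p were 1, 0.869 and 0.737, with 0% of 14757 genes called in each; the unadjusted p were 0.0101, 0.0021 and 0.00714. Without SFM replicate 2 the adjusted p were 0.277, 0.0944 and 0.149, so the difference did not pass the threshold in any of these fits. Across genes, Pearson's r between the dose-set change and that in a method was 0.051 for standard RNA-seq, 0.038 for DP-seq and 0.0026 for SMART-seq over 10329 to 11169 genes, while between methods it was 0.2 to 0.3. Genes are not independent replicates, and the sets compared share no library.

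Lefty1, a direct target of activin and Nodal signaling, was higher in AA100 than in AA3 in all sets, unlike Hoxb1. It had 161 counts in dose-set AA3 and 819 in AA100, 113 and 105 against 732 in standard RNA-seq, 69 against 927 and 887 in DP-seq, and 337 and 218 against 3796 and 4456 in SMART-seq. edgeR called it higher in AA100 in each method, at 2.80 ± 0.10, 3.50 ± 0.48 and 3.94 ± 0.30 (adjusted p 4.98e-172, 6.06e-05 and 0.0137), and gave 2.36 ± 1.15 in the dose set (adjusted p = 1). In SB it had 0 counts, against 40 and 5 in SFM. Lefty1 was named after its values were seen.

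Over the dose steps SFM, AA3, AA15 and AA100, taken as equally spaced, 0 of 3 tested Hox genes had a slope past the threshold, where 0.397% of 12102 genes did. The edgeR slope of Hoxb1 was 0.97 ± 0.38 log2 units per step (adjusted p = 0.372, unadjusted 0.0369). It was 1.90 without SFM replicate 1 (adjusted p = 0.148), and 0.45 per doubling with the dose coded as log2(dose + 1). Hoxa5, a gene of the neck and lung region, had 24 and 0 counts in SFM, 19 in AA3, 16 and 16 in AA15 and 6 in AA100, with a slope of -0.11 ± 0.47 (adjusted p = 0.917). Hoxb9, a thoracic-level gene, had 9 and 16 in SFM, 15 in AA3, 9 and 3 in AA15 and 7 in AA100, with a slope of -0.51 ± 0.29 (adjusted p = 0.47), or -0.25 without SFM replicate 2, a fit that called 5.79% of all genes and 0 Hox genes. The AA100 library held the lowest Hoxa5 count among the activin libraries, and the AA15 pair of Hoxb9 lay on both sides of it.

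Against SFM, edgeR called 0% of 12180 genes in each of AA3, AA15, AA100 and SB, with 197, 702, 541 and 179 genes under an unadjusted p of 0.05, and 0 of 3 tested Hox genes. Hoxb1 in AA100 had a change of 2.93 ± 1.36 (adjusted p = 0.941) from SFM. Hoxa5 in AA3 and AA15 had changes of 0.67 ± 1.64 and 0.48 ± 1.38 (adjusted p 0.985 and 0.907), with both SFM libraries as far apart as 24 and 0 counts. Leaving out SFM replicate 1 made edgeR call 1 Hox gene in AA3 (Hoxa5), 2 in AA15 (Hoxa5 higher and Hoxb9 lower) and 1 in AA100 (Hoxb1), each set against SFM replicate 2, where Hoxa5 and Hoxb1 were at 0. Those fits called 57.3%, 64.7% and 59.2% of all genes, so nothing is read from the members' calls there.

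With SB-431542, Hox counts were at their lowest in the dose set. The SB library had 40 Hox counts, against 78 and 72 in SFM and 51 to 77 in the activin libraries, and read 15 of the 39 genes, against 17 and 16 in SFM. The 38 genes other than Hoxb1 stood at 2.66 CPM in SB and at 4.74 and 5.52 in SFM, 1.92 times higher in SFM (counting interval 1.34 to 2.79), and AA100 was near SB at 2.78. Hoxa5 had 2 counts in SB and Hoxb9 had 4, the latter below both SFM libraries. Their edgeR changes were -2.50 ± 2.15 and -1.98 ± 1.28, with adjusted p of 0.963 each. Hoxb1 was at 0 in SB and in SFM replicate 2, and 5 counts in SFM replicate 1 leave no fold to give. Hoxa5 was called lower without SFM replicate 2 (adjusted p = 0.0282) and Hoxb9 without SFM replicate 1 (adjusted p = 0.0207), in edgeR fits that called 4.12% and 58.4% of all genes. Over all 8 and 7 alternatives the adjusted p reached 1 for both.

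Other members of the dose set moved by a few counts. Hoxb4 had 0 counts in both SFM libraries and 5 in SB, 3.15-fold higher with SFM at the floor of 3 counts over the group. Its counting interval starts at 1.73-fold higher. Hoxb4 also had 5 and 2 counts in AA15, 2.19-fold higher than SFM at the same floor, with 2 in AA3 and 1 in AA100. Hoxa9, an abdominal-level gene, was read in SFM replicate 2 and in SB and in no activin library of the dose set. Hoxd9 had 1 and 8 counts in SFM and 0 in AA3, and 5 and 2 in AA15, so that AA3 lay below all of them. Hoxc8 was read in all 7 libraries, with 8 and 4 counts in SFM, 1 in SB and 4 to 6 under activin.

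The inputs to Hox genes were followed in a list of 16 retinoic acid, Wnt, FGF and streak genes. In standard RNA-seq 9 of 15 tested were lower and 3 higher in AA100, with a median of -0.58 beside -0.009 for all genes and 62.3% of genes called. Aldh1a2, the enzyme that makes retinoic acid, had 110 and 102 counts in AA3 and 5 in AA100 (-4.32 ± 0.36, edgeR adjusted p = 2.71e-29). Wnt3a, a streak ligand needed for posterior mesoderm, had 58 and 66 against 8 (-2.89 ± 0.38, adjusted p = 4.95e-13), and Wnt5a changed by -2.36 ± 0.21. Wnt3a had 5 counts in DP-seq AA3 and 6 and 11 in AA100, and 24 and 66 in SMART-seq AA3 and 30 and 8 in AA100, which overlap. Aldh1a2 had 41 and 8 counts in SMART-seq AA3 and 0 in both AA100 libraries, but 81 in DP-seq AA3 and 33 and 111 in AA100, where the groups overlapped. The list's median was -0.46 in DP-seq (0 of 11 called) and -1.09 in SMART-seq (1 of 8 called, T, lower by -1.26 ± 0.15, edgeR adjusted p = 0.032). Of all genes, 3.43% were called in DP-seq and 1.35% in SMART-seq. In the dose set 0 of 11 were called and the median was 1.38, or 0.57 with Wnt3a, at 0 counts in AA3, taken at its bound.

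Markers of posterior streak and presomitic mesoderm, the cells in which Hox genes start, had a summed level that differed between AA3 and AA100 in the direction of Hoxb1 in each set. That sum, most of which is T (614 of 757 CPM in the first standard AA3 library), went from 757 and 743 CPM in standard AA3 to 577 in AA100, from 691 to 441 and 423 in DP-seq, and from 240 and 303 to 133 and 129 in SMART-seq. In the dose set it was 98.3 and 69.9 in SFM, 24.5 in SB, 276 in AA3, 428 and 561 in AA15, and 992 in AA100. Of 13 markers, edgeR called 9 of 11 tested lower and 1 higher in standard RNA-seq (median -1.49, with 62.3% of all genes called), 3 of 9 lower in DP-seq (median -0.98, 3.43% of all genes), 1 of 9 lower in SMART-seq (median -1.11, 1.35% of all genes) and 0 of 9 in the dose set (median 1.98, or 1.83 with a gene at 0 taken at its bound). Between 1 and 5 of the 13 were at 0 in a library. Their part in the Hoxb1 result was not tested. The list shares several genes, T, Evx1, Cdx2 and Wnt3a among them, with the lists of inputs and of Evx and Cdx genes. Summed endoderm markers stood at 131 CPM in dose-set AA3 and 958 in AA100 (0 of 9 called), at 676 and 673 against 1314 in standard RNA-seq (9 higher and 1 lower of 10), at 531 against 2521 and 2141 in DP-seq (1 higher and 1 lower of 10), and at 258 and 284 against 1219 and 1305 in SMART-seq (1 higher of 9).

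**Figure D4:**
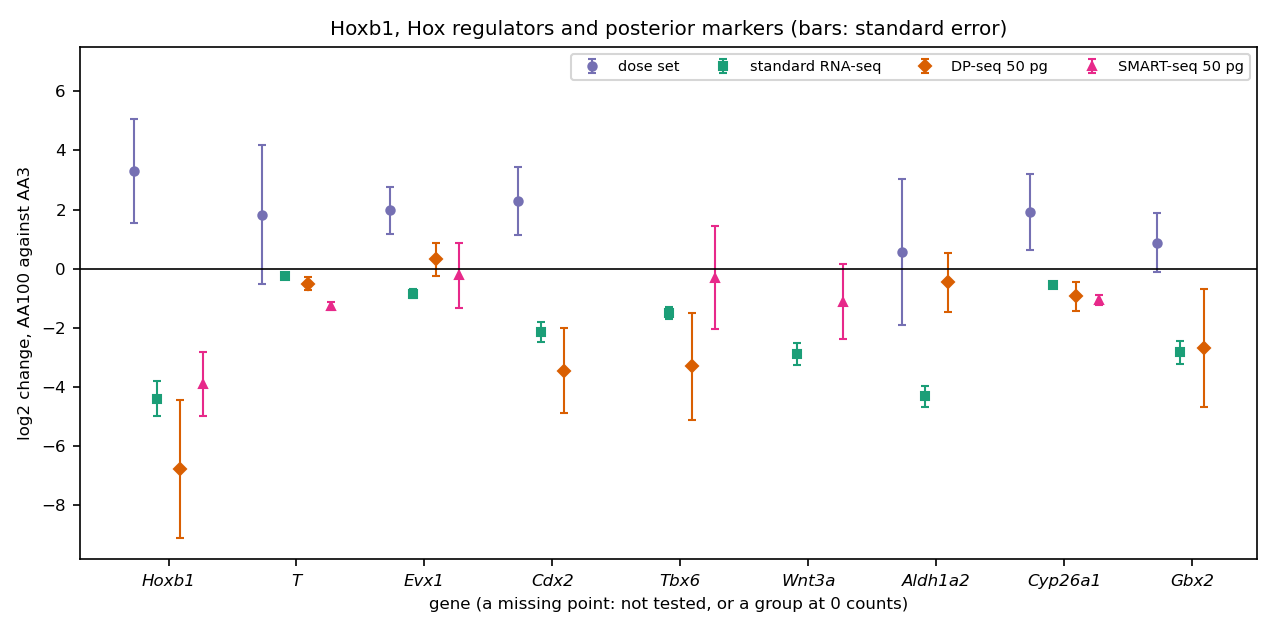
Log2 change from AA3 to AA100 (vertical axis) of Hoxb1 and 8 genes of the lists (horizontal axis) in the dose set and the 3 methods; points are edgeR estimates, bars standard errors, and genes with a group at 0 counts or not tested have no point. Hoxb1 lies at 3.32 in the dose set and between -6.77 and -3.90 in the methods. T, Cdx2, Aldh1a2, Cyp26a1 and Gbx2 also lie above 0 in the dose set and below it in the methods shown. Of these, T, Aldh1a2 and Gbx2 are within their standard error of 0 in the dose set. Evx1 lies above 0 in the dose set and in DP-seq.

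Cdx2, a homeodomain factor that switches on trunk Hox genes, followed the same pattern. It had 63 and 47 counts in standard AA3 and 12 in AA100 (-2.14 ± 0.35, edgeR adjusted p = 1.08e-08). DP-seq had 102 in AA3 and 19 and 1 in AA100 (-3.45 ± 1.43, adjusted p = 0.228), and SMART-seq had 32 and 43 in AA3 and 0 in both AA100 libraries. In the dose set it had 3 counts in AA3 and 15 in AA100 (2.29 ± 1.16, adjusted p = 1). Cdx2 passed the filter on low counts through AA100 alone in the dose set and through AA3 alone in SMART-seq. Evx1, a homeobox gene beside Hoxa13 that marks posterior streak, had 210 and 183 against 106 in standard RNA-seq (-0.84 ± 0.15, adjusted p = 6.81e-08) and 178 against 256 and 261 in DP-seq (0.32 ± 0.56, adjusted p = 0.859). In the dose set Evx1 was the member of the Evx and Cdx list with a called slope, 1.07 ± 0.15 per step (adjusted p = 0.0456), a call lost with the replicate block and without either AA15 library, where 0 genes were called, and without SFM replicate 1, where 0 were called higher. Evx1 had 198 and 217 counts in SFM, 5 in SB, 625 in AA3, 1373 and 871 in AA15 and 2448 in AA100.

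Of 9 Pbx, Meis and Pknox cofactor genes, 6 were tested in standard RNA-seq, with 3 higher and 2 lower and a median of 0.13, where 62.3% of all genes were called. Meis2 had 0 counts in every library. Meis1 changed by -2.61 ± 0.60 (edgeR adjusted p = 3.4e-05) and Pbx4 by 1.25 ± 0.18 (adjusted p = 2.23e-10). The list's median was -0.79 in DP-seq (1 of 5 called, lower), -0.34 in SMART-seq (0 of 6 called) and 0.78 in the dose set (0 of 6 called). In these comparisons 3.43% of all genes were called in DP-seq, 1.35% in SMART-seq and 0% in the dose set. Of 25 Polycomb and Trithorax genes, 9 of 24 tested were higher and 8 lower in standard RNA-seq (median 0.05, beside the same 62.3%), 2 of 19 lower in DP-seq, 0 of 20 called in SMART-seq and 0 of 21 in the dose set, with medians between -0.25 and 0.05 in all 4. Bmi1, a Polycomb subunit, was 1 of the 2 lower in DP-seq, at -1.66 ± 0.30 (adjusted p = 0.00196).

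The dilution series shows how a gene at the level of Hoxb1 was read as mRNA became scarce. From AA3 mRNA, Hoxb1 had 9 and 17 counts at 10 ng, 25 and 34 at 1 ng, 15 and 14 at 100 pg, 0 and 9 at 50 pg, 9 and 2 at 10 pg, and 1 and 1 at 1 pg. The level was 2.27 ± 0.881, 3.16 ± 0.154 and 2.4 ± 0.116 CPM (SD, n = 2) at 10 ng, 1 ng and 100 pg, and 0.669 ± 0.947 at 50 pg. The counting intervals of the pair overlapped at every amount, at 50 pg only from 0.612 to 0.638 CPM. There a library with 5777440 counts read Hoxb1 at 0. Hoxb2 had 1 to 6 counts in each of the 8 libraries from 10 ng to 50 pg and 0 in the 4 below. Among the primer sets Hoxb1 had 33, 0 and 10 counts, so that primer set 2 did not read it while 5019740 counts were sequenced. Hoxb2 had 11, 0 and 0 counts there. The paired-end library had 12 counts of Hoxb1 and 0 of Hoxb2.

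At 1 pg most Hox reads sat in genes other than Hoxb1. Thinned to 427556 counts, the 10 dilution libraries from 10 ng to 10 pg would be expected to show 0.386 to 2.26 Hox genes each, while the 1 pg libraries showed 7 and 4.9. The 38 genes other than Hoxb1 stood at 65.5 and 35.6 CPM there, against 0.315 to 6.23 CPM in the 10 libraries above. Hoxc13 had 14 counts and Hoxa10 had 6 in the first 1 pg library, and Hoxb13 had 7 in the second, each with 0 in the other; Hoxa10 and Hoxb13 had 0 counts in all other libraries. The 1 pg pair had an SD of log2 ratios of 4.65 over 3324 genes.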

How the data were processed

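Counts per RefSeq transcript were deposited by the authors for 33 libraries, as unique reads per the file headers. Tables with values that are not whole (15 values in all) were treated as the authors' estimated counts and rounded. The aligner, like the counting rule and strand use, was not given in the sources used here, and reads of overlapping or antisense transcripts cannot be told apart. RefSeq's gene table (GRCm38.p6) named 25857 of 26566 transcripts, GENCODE named 150, and 559 had no name. Sums gave 21844 genes, and 41 transcripts matched all 39 Hox genes. The test was edgeR 4.0.16 under R 4.3.3 (filterByExpr with a minimum count of 10 and total of 15, TMM, robust quasi-likelihood), adjusted by Benjamini-Hochberg over all genes at 0.05; DESeq2 1.42.0 was an alternative. The dose set was fitted on 7 libraries (6 for the slope, without SB) and each method on its own; fits of the dose step without SFM and SB, of all 17 libraries and with crossed replicate numbers were added after seeing the data; a group of 1 library is assumed to vary like the others in its fit. CPM and RPKM were computed from library totals and GENCODE M21 lengths. Ratio intervals (exact Clopper-Pearson, 95%) and CPM intervals (exact Poisson) cover counting error only, since reads are not independent molecules. The floor is 3 counts over a group. The members, gene lists and tests were chosen with earlier results of these data known. Values were given in every library for members with a mean of at least 20 counts in a group of the dose or method sets or past the threshold; other members named were chosen after their values were seen. Of each list up to 3 tested genes with the largest change could be named; Evx1, Cdx2, T and Lefty1 are given wherever the Hoxb1 pattern is set beside them. Scripts were tested on simulated data. Some genes are not reported here by name.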

Additional observations from a re-analysis of the deposited data

Results flagged for a closer look

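Hox counts of 10 or more appeared in libraries that enter no comparison, for genes that stayed under 10 in all libraries of the dose and method sets. Hoxc13 had 14 counts in the first 1 pg library, Hoxd1 had 11 in the second 100 pg library, and Hoxd13 had 13 in the library of primer set 1. These exceed the 3 counts that a count of 0 allows, and no control library without mRNA is among the samples. Hoxaas3, a noncoding RNA inside the Hoxa cluster and no coding gene, had 16 counts in the first SMART-seq AA3 library and 0 in all other libraries.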

How the results depend on the processing

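Of the recomputed counts of called or read Hox genes, 66 stayed as reported and 12 moved. In standard RNA-seq 2 Hox genes were called, 1 with DESeq2, 0 in the joint fit of 10 libraries, and 0 to 0 in joint fits without either AA3 replicate. In SMART-seq DESeq2 called 1 rather than 0. Without either SFM replicate in turn, calls ran from 0 to 1 for AA100 and AA3 against SFM, from 0 to 2 for AA15 and from 1 to 1 for SB. The 33 genes read became 10 at a minimum of 10 counts, and 19.9 expected with every library thinned to 427556 counts. Of the changes of single genes, 164 stayed, 7 gained and 6 lost a call, and 8 turned direction. Without either SFM replicate in turn, Hoxa5 ran from -0.46 to 0.31 for the slope, -3.42 to 3.99 in SB, -0.25 to 7.15 in AA3, -0.42 to 6.96 in AA15 and -1.87 to 5.52 in AA100, Hoxb1 ran from -1.19 to 3.98 in AA3, and Hoxb9 ran from -0.72 to 0.81 in AA3. With the replicate block, Hoxb9 had 0.06 in AA3. Changes against SFM replicate 2 alone rest on a library with 0 Hoxa5 and Hoxb1 counts and are no bound; for the other changed calls the cause was not tested. Replicate numbers did not pair libraries (correlation of differences -0.233 over SFM and AA15, -0.0192 over SMART-seq). With the replicate block 0 Hox genes were called in every comparison it was run for; all genes called fell from 48 to 0 for the slope and from 155 to 54 in SMART-seq. With the crossed pairing, chosen after seeing the data, 1 gene was called for the slope. Over all alternatives the slope called 0 to 693 genes, with 0 Hox genes in each. Counts are low for most members, as 23 read genes never reached 10.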
